A study of Drosophila melanogaster with 4 samples.

Results

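The regions described here are the 673 most strongly enriched HP1c regions on the chromosome arms 2L, 3L and 3R of Drosophila melanogaster that recurred in a second replicate, out of 4669 regions that replicate 1 held in all. They were chosen from the 2690 replicate 1 regions on these 3 arms by the authors' score, taking those at or above the 75th percentile (0.998), and by at least 1 base shared with a replicate 2 region. The overlap removed none, since all 673 regions above the threshold had a replicate 2 region. The replicate 1 score and the overlap therefore chose the members, and both are given as a description with no test. The 2 regions just inside the threshold were 3L 7968301 to 7970516, with a replicate 1 score of 0.9979, and 2L 3151983 to 3154490, with 0.9983, and the 2 just outside were 3L 16601343 to 16603504, with 0.9972, and 2L 22129020 to 22132273, with 0.9966.

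HP1c-bound DNA was sequenced after chromatin immunoprecipitation (ChIP-seq) from whole wild-type embryos, in 2 ChIP samples and 2 inputs, of the strain Oregon-R (Oregon-R-modENCODE), with the antibody labelled MO 462. The labels give the stage as 14 to 16 h, and the protocol speaks only of an upper age of 16 h at collection, before fixation with 1.8% formaldehyde. All groups share the strain, the genotype and the stage, and each input is tied by its label to 1 ChIP sample. The authors deposited 1 list of enriched regions per ChIP replicate and 1 further list for both replicates taken as a set (the combined list), with positions on FlyBase release 5. The lists carry a score on an unstated scale and no read counts, so the depth behind a region is unknown and scores are compared between lists by rank. Whole embryos hold many cell types, so a region occupied in fewer cells and one occupied less in every cell cannot be told apart. The labels do not state whether the replicates are separate embryo collections, so their spread may be technical, and with 2 ChIP samples no test across samples was run.

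HP1c is a paralog of heterochromatin protein 1 with a chromodomain, the module by which this family binds methylated histone H3, and a chromoshadow domain through which its members bind partner proteins. HP1a is best known from pericentric heterochromatin. HP1c in contrast lies mostly in euchromatin, forms a complex with the zinc finger proteins WOC and ROW, and is known from active promoters in fly cells. The arms 2L, 3L and 3R are mostly euchromatic, with repeat-rich sequence towards their centromere ends.

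The strongest HP1c regions were spread over all 3 arms at nearly the same density. Arm 2L held 203 of them, 3L 212 and 3R 258, which comes to 8.82, 8.64 and 9.25 regions per Mb. Together they covered 2.01 Mb, or 2.66% of the 75.5 Mb of these arms, and 31.6% of all bases that replicate 1 regions covered there. Their replicate 1 scores ranged from 0.998 to 2.58 with a median of 1.32, and the arms had medians of 1.29, 1.29 and 1.34. The regions of replicate 2 at or above the 75th percentile of its own scores on these arms (1.23) had 9.21, 8.27 and 9.35 regions per Mb on 2L, 3L and 3R. In both replicates 3R was thus the densest of these arms and 3L the least dense. The same replicate 1 score was reached by 9.88 regions per Mb on 2R, 14.5 on X and 7.40 on chromosome 4 (10 regions), and the replicate 2 threshold by 10.3, 13.0 and 15.5, so that chromosome 4 lay below the 3 arms in replicate 1 and above them in replicate 2.

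The highest replicate 1 score belonged to 2L 20082713 to 20087762, a region of 5050 bp whose score was 2.58 in replicate 1 and 2.28 in replicate 2, with a combined score of 1.55. It ranked 1 of 2690 in replicate 1 and 21 of 2703 in replicate 2. The next region, 2L 18687838 to 18690638, had 2.48 in replicate 1 and 2.87 in replicate 2, where it ranked 1. Both lay at the left end of a run of 4 members that is described further on. Of the 12 members with the highest replicate 1 score, 7 were on 2L, 5 on 3R and none on 3L.

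The 2L regions among these 12 kept high ranks in replicate 2 with 1 exception. The region 2L 6785853 to 6789059 scored 2.38 and 2.14 in replicates 1 and 2, with ranks of 3 and 52. The region 2L 7798695 to 7801424 scored 2.37 and 2.32, with ranks of 4 and 14. The region 2L 8161373 to 8164155 scored 2.23 and 2.51 and ranked 6 and 3, and 2L 8533766 to 8536906 scored 2.15 and 2.27 and ranked 11 and 22. The region 2L 7529306 to 7531908 was the exception, with scores of 2.19 and 1.89 and ranks of 8 and 147. These 5 regions all lay within a stretch of 1751054 bp of 2L, a grouping that was noticed after the positions were seen.

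On 3R, the region 12060050 to 12064142 scored 2.36 in replicate 1 and 2.30 in replicate 2, with ranks of 5 and 15. The region 3R 24982284 to 24984850 scored 2.21 and 2.62 and ranked 7 and 2, and 3R 9485179 to 9487973 scored 2.19 and 2.44 and ranked 9 and 5. The region 3R 7386842 to 7389610 scored 2.17 and 2.06 and ranked 10 and 74, and 3R 4501333 to 4503749 scored 2.12 and 2.19 and ranked 12 and 34. All 12 regions thus stood within the first 147 regions of replicate 2. Which genes lie at these places was not analysed here, since the only gene annotation used here belongs to release 6 of the genome.

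The score of a strong region in replicate 1 was followed by a high score in replicate 2, which the choice of members had not used. The replicate 2 partner, the region that shared the most bases with a member, had a score between 0.600 and 2.87 with a median of 1.53. It was among the 25% of replicate 2 regions with the highest scores for 516 of the 673 members (76.7%, exact binomial 95% interval 73.3 to 79.8, counting error only). Over all 2690 replicate 1 regions of these arms the share was 25.3%, or 680 regions, the members included. Only the 2208 of them with a replicate 2 region could be counted in it, whereas every member has a partner by the choice. Another 150 members had a partner at or above the median of replicate 2 but under that level, and 7 had a partner below the median. The background share of replicate 1 regions with any replicate 2 overlap was 82.1%, which the choice of members used. In the other direction, 519 of the 676 replicate 2 regions at or above its threshold were overlapped by a member, and 671 by some replicate 1 region.

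**Figure D1:**
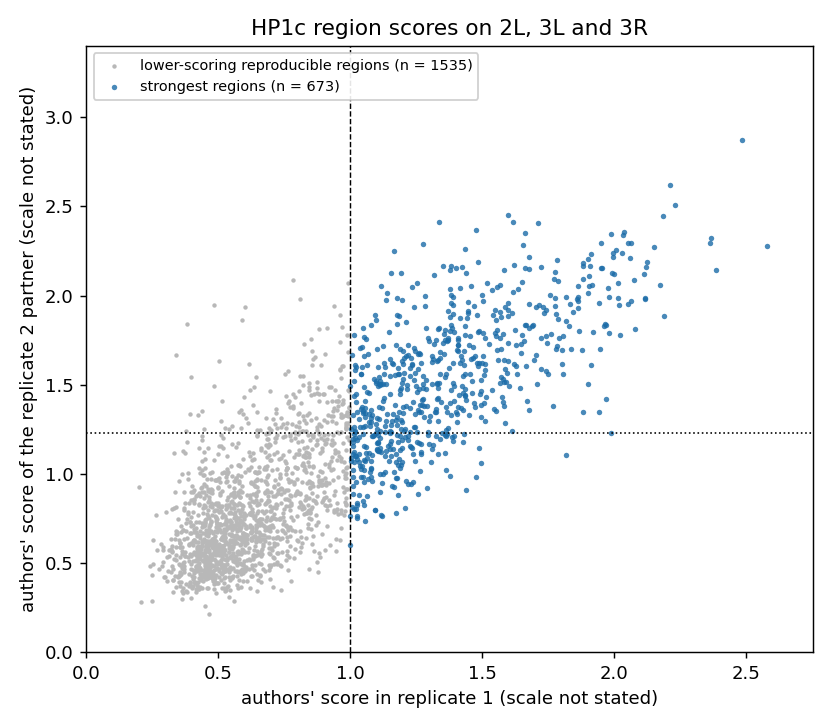
Each point is a replicate 1 region on 2L, 3L or 3R with its score in replicate 1 (x axis) and the score of its replicate 2 partner (y axis), both on the authors' unstated scale; blue points are the 673 strongest regions and grey points the 1535 others with a partner, and the lines are the 75th percentiles of the 2 lists (0.998 dashed, 1.23 dotted). Of the blue points, 516 lie at or above the dotted line.

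Within the members, the order of scores was shared in part. The Spearman rho between replicate 1 and replicate 2 scores was 0.654 across the 673 members, 0.612 on 2L, 0.632 on 3L and 0.690 on 3R, against 0.794 across all 2208 reproducible regions of these arms. Below the threshold, the reproducible regions were grouped by the median and lower quartile of replicate 1 scores. From the highest of these groups to the lowest, with 652, 501 and 382 regions, rho was 0.447, 0.153 and 0.101. The points share their 2 libraries, and a choice by score narrows the range of replicate 1, by an amount that differs between groups. Among the 135 members with the highest replicate 1 scores (1.63 to 2.58) rho was 0.465, and in the other 4 of 5 equal groups by score it lay between 0.119 and 0.244. In those 4 groups the order of neighbouring scores in one replicate said little about that in the other. The median partner score still rose from 1.22 in the lowest of these groups to 1.30, 1.50, 1.64 and 1.95 in the highest. Of the 100 members that led replicate 1, 53 had a partner among the first 100 of replicate 2, the median partner rank was 97.5, and 5 had a partner ranked below 500, the lowest being 839.

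The 5 members whose rank moved most ranked lower in replicate 2, a direction that the choice by replicate 1 score sets, since a member has little room to rise. The region 3L 588386 to 590519, near the threshold with a replicate 1 score of 1.00, scored 0.600 in replicate 2, the lowest partner score of any member, and its rank went from 671 to 1811. The region 2L 16715201 to 16717516 scored 1.44 and 0.909, with ranks of 233 and 1091. The region 3L 13854622 to 13856761 scored 1.17 and 0.781 (ranks 474 and 1333), 2L 13547386 to 13549947 scored 1.12 and 0.763 (524 and 1369), and 3L 19054884 to 19057152 scored 1.21 and 0.809 (429 and 1272). For 3 of the 5, all on 3L, the midpoints of the pair still lay within 71 bp of each other, and for the other 2 the replicate 2 region was wider.

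The widths of the strongest regions had 1 peak and a tail of wider regions. The median was 2556 bp, 50% of the members lay between 2363 and 3198 bp, and the full range was 2007 to 9245 bp. The 2 fullest of the bins of 250 bp, side by side from 2250 to 2749 bp, held 357 members (53.0%), and 196 (29.1%) were 3000 bp or wider. Their replicate 2 partners had a median of 2474 bp and a range of 2024 to 11240 bp, and were narrower than the member in 457 pairs and wider in 215. Width was shared between replicates, with a Spearman rho of 0.784 across members, and 163 of the 196 members of at least 3000 bp had a partner of that width too. The lower ends of both ranges lay close together, at 2007 and 2024 bp.

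Width and score were only weakly related within the members, although both rose together over the whole list. With the replicate 1 regions of these arms ordered by score in 10 groups of 269, the median width climbed from 1616 bp in the lowest to 1752, 1917, 2022, 2099, 2235 and 2427 bp, and then levelled off at 2469, 2556 and 2579 bp in the 3 highest. The Spearman rho of width with score was 0.735 across all reproducible regions and 0.106 across the members. In replicate 2 the corresponding values were 0.682 and 0.214. The choice of members by score narrows its range, which can lower rho. Among members under 3000 bp rho was 0.211, and among those of 3000 bp or more it was -0.141. For their replicate 2 partners the values were 0.310 and -0.003. Members of 3000 bp or more had a median replicate 1 score of 1.33, against 1.32 for the 477 narrower ones, and their median partner scores were 1.57 and 1.51. How the authors' caller sets the edges of a region is not given in the sources used here.

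**Figure D2:**
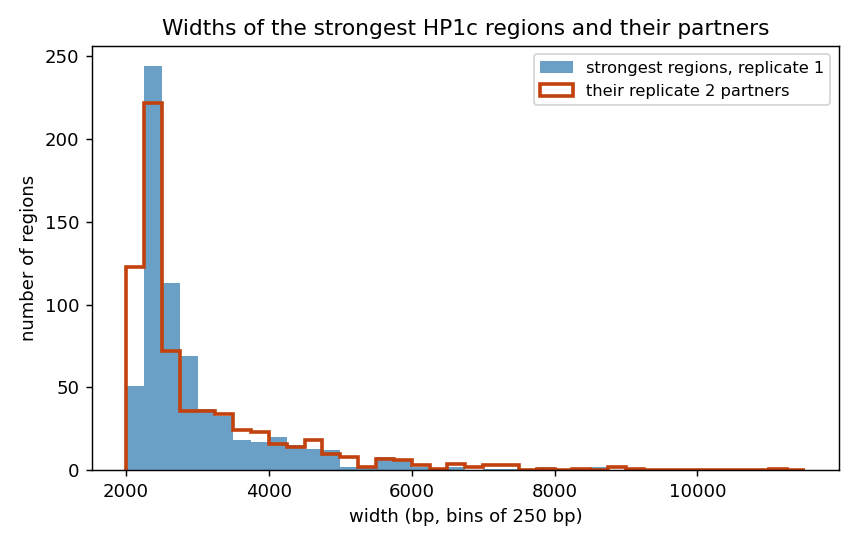
Number of regions (y axis) by width in bins of 250 bp (x axis), with the strongest regions in replicate 1 as filled bars and their replicate 2 partners as an outline. Both peak in the bin from 2250 to 2499 bp, with 244 members and 222 partners, and both have a tail of wider regions.

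The widest member of each arm was not among the highest scores. The region 3R 6086633 to 6095877 spanned 9245 bp in replicate 1 and 9239 bp in replicate 2, with its ends 52 and 58 bp apart, and scored 1.11 and 1.20 (ranks 534 and 724). The region 3L 14747845 to 14755840 spanned 7996 and 7845 bp and scored 1.40 and 1.70 (ranks 265 and 250). The region 2L 2195329 to 2203568 spanned 8240 bp, but its partner began further left, at 2192293, and spanned 11240 bp, with scores of 1.30 and 1.17 (ranks 351 and 760). On 3L and 3R both edges thus recurred within 123 bp, and on 2L the right edge alone lay this close.

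The replicates placed the strongest regions at the same spot to within a small part of their width. The midpoints of a member and its partner were a median of 54 bp apart, 430 members (63.9%) were within 100 bp, 90% were within 473 bp and 28 were over 1000 bp apart. The median signed offset was 2.5 bp, small beside the median distance of 54 bp. Starts differed by a median of 64 bp and ends by 61 bp, and the pair shared a median of 94.1% of the bases that either covered. No region of the 3 arms had the same start and end in both lists, and 1 member had an identical start and 3 an identical end.

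The offset was smaller for higher scores. Its median was 54 bp for the members, 81 bp for the 652 reproducible regions of the next 25% by score, 144 bp for the 501 of the third and 145 bp for the 382 of the lowest. Inside the members, in 5 equal groups from the lowest score to the highest, it was 72, 77, 52, 41 and 35 bp. Narrow members agreed more closely than wide ones, with a median of 35 bp under 3000 bp and 138 bp from 3000 bp up, and with 357 of 477 against 73 of 196 within 100 bp. The arms had medians of 69.5 bp on 2L, 44 bp on 3L and 39.5 bp on 3R. Score, width and offset come from the same lists, and these differences were not tested.

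**Figure D3:**
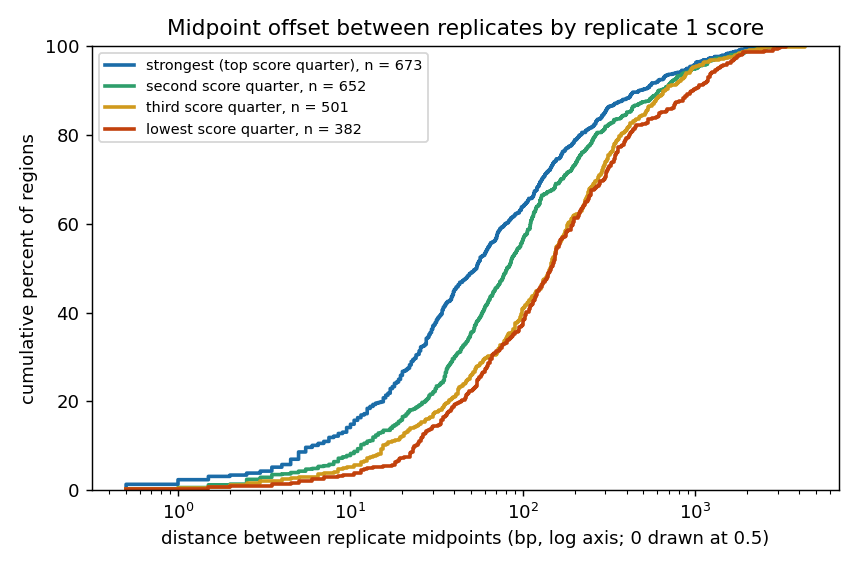
Cumulative percent of reproducible regions (y axis) by the distance between the midpoints of the replicate 1 region and its partner (x axis, bp, log axis), for 4 groups by replicate 1 score. The curve of the 673 strongest regions lies to the left, with a median of 54 bp against 145 bp for the lowest group.

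In the 3 pairs with the largest offsets the partner was wider than the member, and among the 28 members with an offset over 1000 bp it was wider for 19 and narrower for 9. At 3R 7039083 to 7043023 the midpoints were 2804.5 bp apart. Replicate 1 had 2 members there, 7034562 to 7039078 and 7039083 to 7043023, separated by 4 bp, where replicate 2 had the single region 7034709 to 7041788. Their replicate 1 scores were 1.04 and 1.13 and the single replicate 2 region scored 1.60. The region 2L 17383207 to 17386249 (3043 bp) lay at the right end of a replicate 2 region of 8441 bp, 2359 bp from its midpoint, and 2L 16715201 to 16717516 (2316 bp) at the left end of one of 6599 bp, 2218.5 bp from its midpoint. At each of these places on 2L, replicate 1 also had a weaker region that was not a member and had the same partner. In these 3 places 1 wide replicate 2 region thus overlapped a narrower member and another replicate 1 region. Elsewhere the split went the other way, with 10 members overlapped by 2 replicate 2 regions.

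All 673 members were overlapped by the combined list (exact binomial 95% interval 99.5 to 100%), where 86.0% of all replicate 1 regions on these arms were. That background includes regions without a replicate 2 region, which the choice of members left out. Of the 2208 reproducible regions, 2152 had a combined region, so the contrast with 86.0% does not single out the strongest regions. The combined region had a score among the highest 25% of that list on these arms for 624 members (92.7%, 90.5 to 94.6). Over all replicate 1 regions, again including those without a replicate 2 region, the share was 41.1%. The combined list held 4732 regions on these arms, against 2690 in replicate 1 and 2703 in replicate 2. Its highest 25% thus take in more regions, and 92.7% cannot be set beside the share for replicate 2. The combined list was made from the same samples, so its shares are no independent evidence. The combined score had a Spearman rho of 0.616 with the replicate 1 score and of 0.934 with the replicate 2 score across members, whose choice narrows the range of replicate 1. Across all 2152 reproducible regions of these arms with a combined region, the values were 0.724 and 0.899. The combined region had a median width of 2540 bp and was the best match of a single member in 649 cases, of 2 members in 10 and of 4 members in 1. That last one was the broad region 3R 25518698 to 25639490, of 120793 bp and a combined score of 0.989. In all, 32 members lay in 23 combined regions wider than 10000 bp.

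Along an arm, the distance from one member to the next varied widely. The median gap was 57974.5 bp, with 50% of the 670 gaps between 15159 and 146526 bp, and the range ran from 4 bp to 737979 bp. The median was 55772 bp on 2L, 64474 bp on 3L and 52643 bp on 3R. The next 25% of regions by score, with 652 reproducible regions, had a median gap of 53668 bp among themselves. The closest spacings were more frequent among the members, with 131 of 670 gaps (19.6%) of at most 10 kb against 92 of 649 (14.2%), and 75 against 49 of at most 5 kb. At 20 kb the counts were 193 and 185, so that the difference lay at short range. It was not tested.

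**Figure D4:**
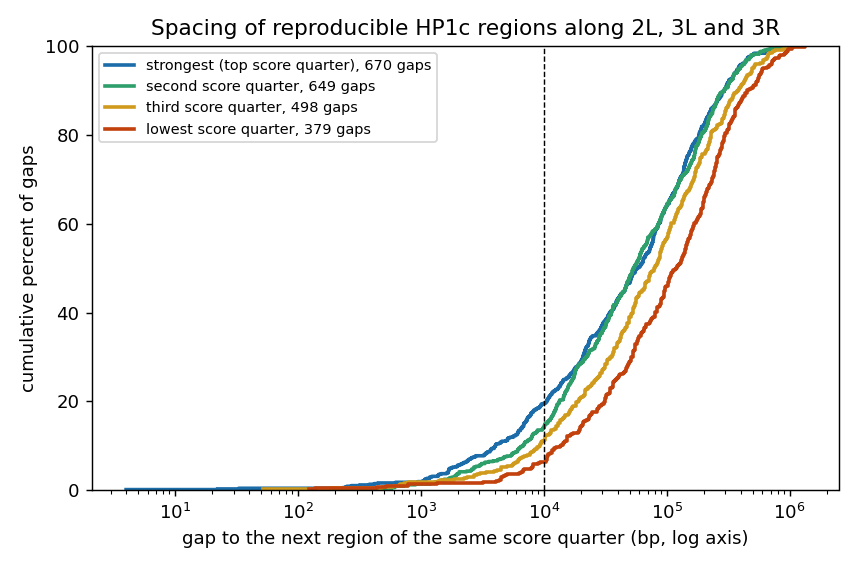
Cumulative percent of gaps (y axis) by the gap from one region to the next region of the same score group on the arm (x axis, bp, log axis), for 4 groups of reproducible regions by replicate 1 score; the dashed line marks 10 kb. At that line the curve of the strongest regions stands at 19.6% and that of the next group at 14.2%, and the 2 meet at larger gaps.

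The nearest region of any score lay a median of 3704 bp from a member, against 4239, 4975.5 and 5792 bp for the replicate 1 regions of the 3 lower score groups. It was within 10 kb for 522 of the 673 members (77.6%). The score of that neighbour was mixed: it was itself a member for 180 (26.7%), in the next group for 186 (27.6%), in the third for 167 (24.8%) and in the lowest for 140 (20.8%). With members making up 673 of the 2690 replicate 1 regions on these arms, the nearest neighbour of a member was another member about as often as that share, a difference that was not tested.

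Members formed short runs. Joined over gaps of at most 10 kb, 442 of the 673 stood alone, and the other 231 (34.3%) formed 77 pairs, 16 runs of 3, 6 runs of 4 and 1 run of 5. The replicate 2 regions above its own threshold gave a like picture, with 246 of 676 (36.4%) in runs, of which the longest had 7. Among the next 25% of replicate 1 regions by score, 173 of 652 (26.5%) were in runs, with none longer than 3. With gaps of at most 20 kb these shares were 47.8% for the members and 48.2% for the next group.

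The only run of 5 spanned 21573 bp at 3L 6166074 to 6187646. Its members had replicate 1 scores of 1.10, 1.12, 1.02, 1.04 and 1.50 from left to right, and partner scores of 1.17, 1.50, 0.823, 1.71 and 1.66. All 5 had a partner of their own, and 3 of the partners were above the replicate 2 threshold. The scores of this run were thus mostly in the lower part of the members' range.

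Of the runs of 4, the ones on 2L each began with 1 of the 2 highest-scoring regions of the arm. At 2L 20082713 to 20099691 (16979 bp) the scores were 2.58, 1.52, 1.36 and 1.33 in replicate 1 and 2.28, 1.73, 1.56 and 1.51 in replicate 2, so that both replicates fell from left to right. At 2L 18687838 to 18706873 the scores were 2.48, 1.10, 1.20 and 1.17 in replicate 1 and 2.87, 1.28, 1.57 and 1.07 in replicate 2, with the first region far above the others in both. The run 3R 1472932 to 1496459 had scores of 1.88, 1.56, 1.62 and 1.58 in replicate 1 and 2.09, 1.64, 2.17 and 1.51 in replicate 2. The other 3 runs of 4 were also on 3R, at 4858466 to 4884391, 7021863 to 7053479 and 12046393 to 12077422, the last holding the region ranked 5 in replicate 1. In the run from 7021863, the 2 members separated by 4 bp had the same partner. Replicate 2 thus had 3 regions above its threshold there.

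Close neighbours, separate in replicate 1 by their choice, were mostly separate in replicate 2 too. Of the 11 neighbouring pairs of members at most 500 bp apart, 5 on 2L and 6 on 3R, replicate 2 had separate regions for 9 and a single region for 2. In the combined list a single region was the best match of both members for 3 of the 11. The closest pair of 2L, 18702063 to 18704406 and 18704638 to 18706873, was 231 bp apart in replicate 1 and was split at the same place in replicate 2, with scores of 1.20 and 1.17 in replicate 1 and 1.57 and 1.07 in replicate 2. The pair 3R 6207544 to 6211232 and 6211476 to 6214905 had scores of 1.99 and 1.86 in replicate 1 and 2.22 and 1.99 in replicate 2, and it was named after its values were seen. Its members were separate in both replicates but had the same combined region. The closest pair of 3L was 945 bp apart, within the run of 5.

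At the scale of megabases the number of members varied from window to window. Over 74 windows of 1 Mb, which held 669 of them, the number per window had a mean of 9.04 (SD 3.54, n = 74) and ran from 2 to 17, with no empty window. The variance was 1.39 times the mean, against 1.88 for the next 25% of regions by score, 1.64 for the third group and 1.16 for the lowest, and 1.14 for the replicate 2 regions above their threshold. The 10 fullest windows held 22.6% of the members. The number of members per window had a Spearman rho of 0.751 with the number of replicate 2 regions above their threshold, and of 0.385 with the number of weaker replicate 1 regions, across 74 windows that are not independent. A member overlapped 519 of the 676 replicate 2 regions above that threshold, so the first rho largely compares counts of the same places. The weaker regions leave out every member, so the gap between these values has no reading of its own.

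The fullest windows were 3R 4 to 5 Mb and 3R 7 to 8 Mb with 17 members each, 2L 20 to 21 Mb and 3L 0 to 1 Mb with 16 each, and 2L 2 to 3 Mb and 3R 1 to 2 Mb with 15 each. In replicate 2 the same windows held 13, 12, 12, 10, 12 and 14 regions above its threshold, all above its mean of 9.05. The fullest window of replicate 2 was another, 2L 10 to 11 Mb, with 20 regions above its threshold against 10 members. The emptiest were 2L 17 to 18 Mb and 3L 12 to 13 Mb with 2 members each, where replicate 2 held 1 and 2. Both replicates thus had few strong regions in these windows, although the window on 3L had 32 replicate 1 regions of any score and that on 2L 11.

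The longest gap without a member was 737979 bp on 2L, between 17411658 and 18149638, and held 9 weaker replicate 1 regions. On 3L the longest was 736660 bp, from 9893226 to 10629887, with 9 weaker regions and none of the replicate 2 regions above threshold. On 3R it was 696023 bp, from 12169060 to 12865084, with 21 weaker regions. Replicate 2 had 1 region above its threshold inside the 2L gap and 3 inside the 3R gap. The lack of members in these stretches was set by their choice as the longest gaps. They were not without HP1c regions, and the combined list held 39 regions in the gap on 2L, 15 in that on 3L and 23 in that on 3R. That list is longer on these arms, with 4732 regions against 2690 in replicate 1.

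Along the length of the arms the density of strong regions differed from part to part. Near the centromere, in the last 20% of the arm, there were 9.78 members per Mb on 2L, 7.33 on 3L and 11.1 on 3R, against 8.11, 8.22 and 9.02 in the middle 60%. The 20% nearest the telomere had 9.99, 11.2 and 8.06. In replicate 2 the regions above its threshold had 10.4, 9.17 and 11.1 per Mb near the centromere, 8.76, 7.81 and 9.26 in the middle and 9.34, 8.76 and 7.88 near the telomere. The centromere-near part was therefore richer than the middle 60% taken as a whole on 2L and 3R in both replicates, and on 3L the order differed between them. With each arm cut into 5 equal parts, the lowest density was in the fourth part of 2L, counted from the telomere, with 21 members or 4.56 per Mb, and replicate 2 had 4.78 per Mb there. This sparse part belongs to the middle of 2L, where other parts were denser than the centromere-near part. The second part had 11.1 members per Mb, and in replicate 2 the third part had 11.3 regions per Mb. On 3L the last member ended 12123 bp before the end of the assembled arm, on 2L 48444 bp before it, and on 3R the first began 57144 bp after it. At the telomere ends the stretch without a member was longer, with 86462 bp on 2L, 183344 bp on 3L and 272693 bp on 3R.

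**Figure D5:**
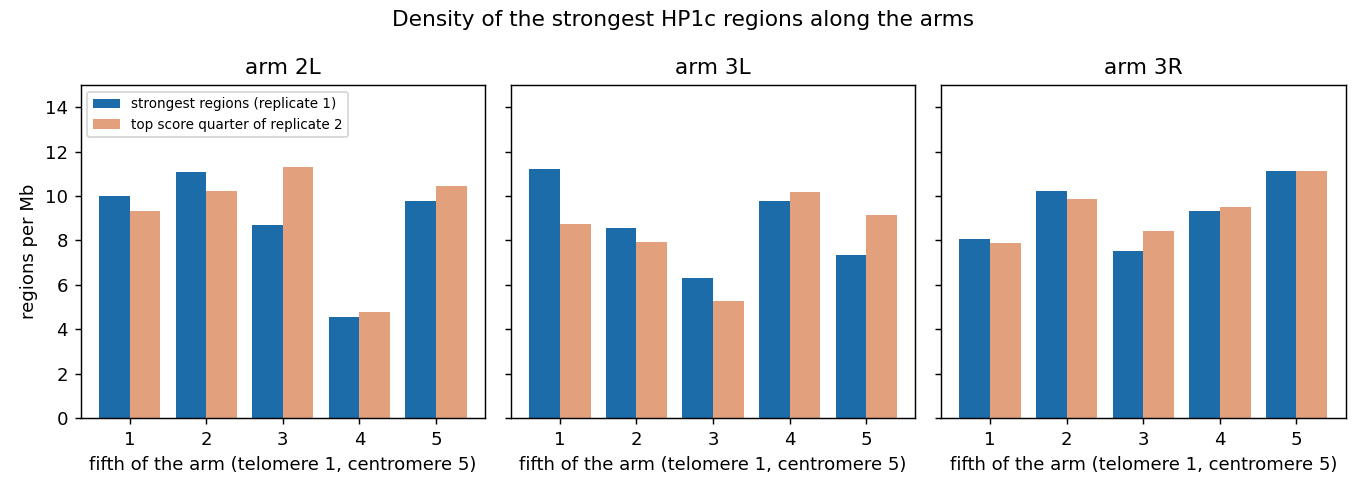
Regions per Mb (y axis) in 5 equal parts of each of the arms 2L, 3L and 3R, counted from the telomere end (x axis), for the strongest regions of replicate 1 and for the replicate 2 regions at or above the 75th percentile of that list. The fourth part of 2L is the lowest of all 15 in both replicates, with 4.56 and 4.78 regions per Mb.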

How the data were processed

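The authors deposited lists of regions named as significantly enriched, each with a start, an end and a score, on FlyBase release 5, per the file headers. Bowtie 0.12.7, which aligns reads, is the only tool that the submitters' processing notes name. Not given in the sources used here are the region caller, its threshold, the scale of the deposited score and how both replicates entered the combined list. Input samples enter only through the authors' calls, and depth per sample is unknown.

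Groups and replicate numbers came from the sample titles. Percentiles and ranks were taken over the regions of 2L, 3L and 3R in each list. The partner of a region was the replicate 2 or combined region sharing the most bases. Gaps are the bases between neighbouring regions, runs join gaps of at most 10 kb, and windows of 1 Mb hold a region by its midpoint. Intervals are exact (Clopper-Pearson) and cover counting error only. No test was run: members were chosen by score, and there are 2 ChIP samples. The members and measures were chosen with earlier results of these data known. Regions were named by a rule: the 12 highest replicate 1 scores, the widest region, closest pair, longest run and longest gap of each arm, the 5 largest rank differences, the 3 largest offsets and the regions at the threshold; others in the text were chosen after their values were seen. The planned base composition and motif search was not run, since no genome of release 5 was at hand. The matching and spacing code was tested on simulated data. Python 3.11.15, numpy 2.4.6, pandas 2.3.3, scipy 1.17.1 and matplotlib 3.10.9 were used.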

Additional observations from a re-analysis of the deposited data

How the results depend on the processing

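The number of members was 1325 with the 50th and 269 with the 90th percentile. It was 658 with 50% of both regions shared, 671 with the midpoint inside the partner and 671 with the replicates exchanged, which is another set: a member overlapped 519 of the 676 replicate 2 regions at or above its threshold. The score rule alone, with either replicate left out, gave 673 and 676 regions, with a median width of 2534.5 to 2556 bp and a median gap of 57071 to 57974.5 bp. The median width was 2475 bp with the 50th percentile, 2579 bp with the 90th, 2537 bp with the replicates exchanged and 2474 bp for the replicate 2 partners. The median gap was 21659.5 bp with the 50th percentile, 178234 bp with the 90th, 63919 bp with 50% of both regions shared, 59194 bp with the midpoint inside the partner, 57838 bp with the replicates exchanged, 61799 bp with members closer than 500 bp merged, 60697 bp from midpoint to midpoint, and 59194, 53458 and 64045 bp without 2L, 3L and 3R. Midpoints lay 46.75 bp apart among pairs with a single partner each. The share of members with a partner among the highest 25% of replicate 2 was 97.0% above the 90th percentile. Members per Mb were 8.95 and 9.17 in windows of 500 kb and 2 Mb, and 9.14, 9.18 and 8.79 without 2L, 3L and 3R. Their variance over mean stayed between 1.39 and 1.51, and the score correlation between 0.654 and 0.667. With at least 50% of both regions shared, 90.2% of the members were overlapped by the combined list. Runs of 2 or more members numbered 100 with gaps of at most 10 kb, 66 with 5 kb and 129 with 20 kb, distances set with the design but listed as alternatives only after the data were seen. The cause of these shifts was not tested. A change of the score threshold changes by its definition how many regions are counted. No paired analysis was possible because the inputs, which share replicate numbers with the ChIP samples, have no lists here and no test was run. The depth behind the regions is unknown, so what it limits could not be assessed.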
